A study of Mus musculus with 6 samples.

Results

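Expression of 10 genes of the macrophages that sit at the center of erythroblastic islands was followed through the bone marrow transcriptome of *MxCDX2* and control mice: *Vcam1*, *Spic*, *Slc40a1*, *Hmox1*, *Cd163*, *Siglec1*, *Adgre1*, *Mertk*, *Axl* and *Mrc1*. They were chosen by symbol, as genes of resident marrow macrophages and of heme recycling, and they are 10 of the 39179 mouse genes counted. All 10 passed the filter on low counts and are among the 15980 genes tested.

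Stranded mRNA libraries had been sequenced from the bone marrow of 6 littermates. The 3 *MxCDX2* mice had the genotype *RsCDX2::Mx1Cre*: *RsCDX2* is a knockin of the human *CDX2* coding sequence at *Rosa26* behind a stop sequence that Cre removes, and *Mx1Cre* puts Cre under control of the *Mx1* promoter, which responds to interferon and is active in many cell types and not only in blood cells. Each control genotype was represented by a single animal: control 1 was *RsCDX2*, control 2 was *Mx1Cre* and control 3 was wild type. All 6 mice, controls included, were injected 3 times into the peritoneum at the age of 3 months with poly(I:C), a double-stranded RNA analog that triggers the interferon response, at 10 µg per g, and the marrow was taken 6 weeks after that.

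An erythroblastic island is a macrophage surrounded by maturing erythroblasts. The macrophage holds the erythroblasts through adhesion molecules, engulfs the nuclei that they expel, breaks down heme from ingested cells and returns the iron to the marrow through the exporter ferroportin. Several of the 10 genes are also used by other marrow cells: *Vcam1* is also a gene of stroma and endothelium, *Hmox1* and *Slc40a1* are also used by erythroid cells, and *Adgre1* is also found on monocytes and eosinophils.

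The libraries held between 38646101 and 49899650 reads counted on genes. Reads on *Cdx2*, on which human *CDX2* reads would be counted if at all, numbered 4, 0 and 0 in controls 1, 2 and 3 and 152, 155 and 183 in the *MxCDX2* mice. The wild-type control stood apart from the other controls: the second principal component, with 15.6% of the variance, put it at -64.6 and the *RsCDX2* and *Mx1Cre* controls at 32.7 and 37.6. Values of the 10 genes are therefore given for each mouse, and results are given with and without that animal. Normalized counts are reads divided by the TMM-adjusted size of the library and multiplied by the mean of that size over the mice.

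Of the 10 genes, 6 were downregulated in *MxCDX2* bone marrow (*Vcam1*, *Spic*, *Slc40a1*, *Hmox1*, *Mertk* and *Axl*), 0 were upregulated and 4 did not pass the thresholds (*Cd163*, *Siglec1*, *Adgre1* and *Mrc1*). The 10 genes did not move as 1 group. A gene was called when its absolute log2 fold change exceeded 1 and its adjusted p-value was below 0.05 in edgeR's quasi-likelihood test. By the same rule 9.03% of all tested genes were called lower and 4.59% higher. The median log2 fold change was -1.73 over the 10 genes and 0.0021 over all tested genes. DESeq2 and limma voom called the same 6 genes lower and 0 higher, and at an unadjusted p under 0.05 edgeR placed 6 genes lower and 1, *Adgre1*, higher. In 6 of the 10 genes every *MxCDX2* mouse lay below every control mouse, which held for 20.7% of all tested genes, and in 1, *Adgre1*, every *MxCDX2* mouse lay above, as in 21.4% of all tested genes. In the other 3 of the 10 genes the groups overlapped, and groups that did not overlap were found for 42.1% of all tested genes. For those of the 10 genes whose groups did not overlap, the exact two-sided permutation test over mice gave p = 0.10. This is the smallest p that 3 mice against 3 can give. In bulk RNA, fewer cells of a type and less RNA per cell cannot be told apart, and this holds for every change below. Without the wild-type control, 5 of the 10 genes were called lower, 1 was called higher, and the median log2 fold change was -1.12. The count of lower calls fell to 2 without *MxCDX2* mouse 1 (*Slc40a1* and *Mertk*), to 1 without *MxCDX2* mouse 2 (*Slc40a1*) and to 4 without *MxCDX2* mouse 3.

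**Figure D1:**
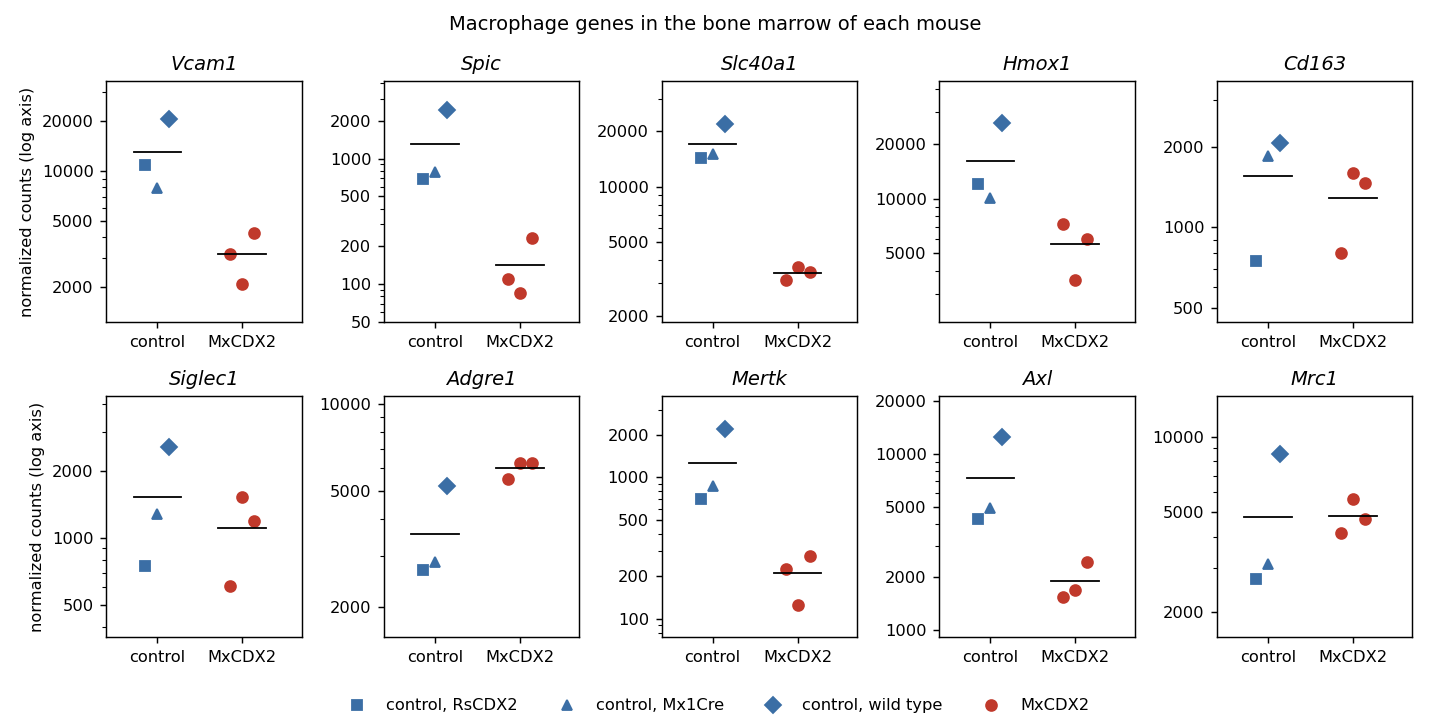
Normalized counts of the 10 macrophage genes in each mouse, on a log axis of its own in each panel; symbols mark the 3 control genotypes and the *MxCDX2* mice, and horizontal lines mark the mean of 3 mice. The 3 *MxCDX2* mice lie below all 3 control mice for *Vcam1*, *Spic*, *Slc40a1*, *Hmox1*, *Mertk* and *Axl* and above them for *Adgre1*, and the wild-type control is the highest control in all 10 panels.

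On GRCm38 (GENCODE M21), *Vcam1* lies at chr3:116109949-116129688 on the minus strand, *Spic* at chr10:88674772-88685015 (minus), *Slc40a1* at chr1:45908068-45926523 (minus), *Hmox1* at chr8:75093621-75100589 (plus) and *Cd163* at chr6:124304656-124330527 (plus). *Siglec1* lies at chr2:131069220-131086765 (minus), *Adgre1* at chr17:57358691-57483527 (plus), *Mertk* at chr2:128698956-128802894 (plus), *Axl* at chr7:25757273-25788705 (minus) and *Mrc1* at chr2:14229392-14332057 (plus). All 10 are protein-coding, and none shares exon bases with another counted gene.

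Promoter sequence was at hand for 5 of the genes, the downregulated *Spic*, *Mertk* and *Axl* and the uncalled *Cd163* and *Mrc1*, and is shown so that the letters before the starts of called and uncalled genes can be compared. The 200 bases before each RefSeq transcript start (GRCm38.p6) are printed 5′ to 3′ on the strand of the gene, from chr10:88683024-88683223 (minus) for *Spic*, chr2:128698715-128698914 (plus) for *Mertk*, chr7:25788734-25788933 (minus) for *Axl*, chr6:124304451-124304650 (plus) for *Cd163* and chr2:14229214-14229413 (plus) for *Mrc1*. The *Spic* stretch lies wholly inside the GENCODE span of the gene given above, so it precedes a start within that span and not its 5′ end. The last bases of the *Mrc1* stretch also lie within the span of that gene. Capitals mark the PU-box core, the purine-rich element bound by ETS factors such as PU.1 and Spi-C, as GAGGAA on either strand.
Spic: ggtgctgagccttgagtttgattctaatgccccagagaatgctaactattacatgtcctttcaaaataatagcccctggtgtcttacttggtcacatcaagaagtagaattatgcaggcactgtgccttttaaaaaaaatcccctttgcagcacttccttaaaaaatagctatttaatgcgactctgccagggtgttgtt
Mertk: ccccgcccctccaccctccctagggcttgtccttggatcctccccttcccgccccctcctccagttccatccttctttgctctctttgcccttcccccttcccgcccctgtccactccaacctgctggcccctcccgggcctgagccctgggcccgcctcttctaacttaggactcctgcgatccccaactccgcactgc
Axl: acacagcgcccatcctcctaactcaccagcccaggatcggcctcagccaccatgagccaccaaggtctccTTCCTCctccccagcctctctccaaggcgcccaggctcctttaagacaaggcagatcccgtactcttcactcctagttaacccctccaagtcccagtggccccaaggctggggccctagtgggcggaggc
Cd163: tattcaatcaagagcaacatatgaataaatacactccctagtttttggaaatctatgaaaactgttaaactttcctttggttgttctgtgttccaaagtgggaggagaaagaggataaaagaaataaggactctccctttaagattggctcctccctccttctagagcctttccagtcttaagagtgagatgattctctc
Mrc1: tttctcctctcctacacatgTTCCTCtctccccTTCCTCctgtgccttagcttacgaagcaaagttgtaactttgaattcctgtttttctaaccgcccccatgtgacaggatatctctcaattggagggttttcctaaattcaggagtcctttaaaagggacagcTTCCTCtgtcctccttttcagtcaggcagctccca
Over windows of 250 bases before to 50 bases after the start, the core was found in 2 of the 5 genes, on the opposite strand in each case. *Axl* had 1 match, at -130 to -125 from the start, and *Mrc1* had 3, at -180 to -175, -167 to -162 and -35 to -30. The core was present in 28.3% of all 32851 windows of the same length. The antioxidant response core TGACNNNGC, an NF-kB site and the TATA box TATAAA, each searched on both strands, were in 0 of the 5 windows and in 12.4%, 4.79% and 13.6% of all windows. No match therefore overlapped another motif, and a match or its absence is a description of the letters only.

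*Vcam1* encodes the adhesion molecule through which the macrophage binds the integrin α4β1 of erythroblasts. It had 10901, 7909 and 20488 normalized counts in controls 1, 2 and 3 and 3190, 2096 and 4239 in *MxCDX2* mice 1, 2 and 3. The lowest control mouse was above the highest *MxCDX2* mouse, and the control mean of 13100 ± 6572 (SD, n = 3) was 4.13 times the *MxCDX2* mean of 3175 ± 1072 (SD, n = 3). The log2 fold change was -2.04 (SE 0.41, edgeR adjusted p = 0.0161), and -1.55 without the wild-type control (edgeR adjusted p = 0.0158). The call did not hold without *MxCDX2* mouse 1 or mouse 2 (log2 fold change -2.04 and -1.81, edgeR adjusted p = 0.0508 and 0.0543).

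The erythroid counterparts of *Vcam1* did not follow it. *Itga4*, the α4 chain, had 13608, 14465 and 13589 normalized counts in the controls and 21185, 17602 and 20230 in the *MxCDX2* mice, all above the controls, with a log2 fold change of 0.50 (edgeR adjusted p = 0.0259) that did not reach the fold threshold. *Itgb1*, the β1 chain, had a log2 fold change of -0.13 (edgeR adjusted p = 0.782), with the control mice between 9146 and 20279 and the *MxCDX2* mice between 11912 and 12919 normalized counts. Both integrin chains are present on most blood cells. Of the 9 tested genes of a list of island adhesion partners, 0 were called in either direction by edgeR, against 13.6% of all tested genes. The median log2 fold change of the list was -0.06. At an unadjusted p under 0.05, 2 of the 9 were lower and 2 higher. DESeq2 called 1 of them lower, *Ephb4*, an ephrin receptor, and limma voom called 0. *Maea*, an adhesion molecule of both macrophage and erythroblast, had a log2 fold change of -0.09 and *Itgav*, the αv integrin, of -0.02, and for both genes the groups overlapped. *Icam4*, the erythroblast ligand of αv integrins, had 0 reads in every mouse, including the controls with abundant erythroid transcripts, although no other counted gene overlaps it in GENCODE M21, and the reason was not tested.

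*Spic* encodes Spi-C, the heme-induced transcription factor that is needed for iron-recycling macrophages. It had the largest fall of the 10 genes, with 694, 784 and 2446 normalized counts in the controls and 110, 84.3 and 232 in the *MxCDX2* mice. No mouse of one group reached the other group, and the control mean of 1308 ± 987 (SD, n = 3) was 9.21 times the *MxCDX2* mean of 142 ± 78.6 (SD, n = 3). With all mice the log2 fold change was -3.20 (SE 0.64, edgeR adjusted p = 0.0159), and it was -2.36 (edgeR adjusted p = 0.0147) without the wild-type control, the animal with the highest value. Leaving out *MxCDX2* mouse 1 or mouse 2 gave -3.04 and -2.93, with an edgeR adjusted p of 0.0536 and 0.0583.

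*Bach1*, *Nfe2l2*, *Spi1*, *Mafk* and *Maf*, regulators that act on *Spic* or *Hmox1* or in mature macrophages, did not pass both thresholds. *Bach1*, the repressor that heme releases from DNA, had a log2 fold change of 0.06 (edgeR adjusted p = 0.723), and *Nfe2l2*, which encodes the activator Nrf2, of -0.04 (edgeR adjusted p = 0.867). *Spi1*, which encodes the related factor PU.1, had a log2 fold change of 0.14 (edgeR adjusted p = 0.536). In these genes the control and *MxCDX2* mice overlapped. *Mafk*, a small Maf protein that pairs with both Bach1 and Nrf2, had 4140, 4105 and 3426 normalized counts in the controls and 2578, 1971 and 2451 in the *MxCDX2* mice, all below, with a log2 fold change of -0.74 (edgeR adjusted p = 0.0135). *Maf*, a transcription factor of mature macrophages, had a log2 fold change of -1.01 (edgeR adjusted p = 0.102), with all *MxCDX2* mice below all control mice. Another regulator, *Nr1h3*, listed below with dead-cell and nucleus uptake, was called lower (log2 fold change -1.63, edgeR adjusted p = 0.0331).

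*Hmox1* encodes heme oxygenase 1, which opens the heme ring and releases its iron. It had 12066, 10062 and 26103 normalized counts in the controls and 7304, 3554 and 5992 in the *MxCDX2* mice. The groups did not overlap, but the wild-type control was far above the other controls. The mean was 16077 ± 8741 (SD, n = 3) in control and 5617 ± 1903 (SD, n = 3) in *MxCDX2* mice, a ratio of 2.86. The log2 fold change of -1.52 (SE 0.43, edgeR adjusted p = 0.0465) was the closest of the 6 calls to the threshold on the adjusted p. It kept its call in 1 of the 6 fits that left out a mouse, was -0.96 (edgeR adjusted p = 0.0560) without the wild-type control and -1.43 (edgeR adjusted p = 0.0556) when libraries were scaled by total counts only.

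*Slc40a1* encodes ferroportin, the only known iron exporter of mammalian cells. It had 14308, 15067 and 22028 normalized counts in the controls and 3131, 3689 and 3435 in the *MxCDX2* mice. The *MxCDX2* mice were close together, at 3418 ± 279 (SD, n = 3), and the control mean of 17135 ± 4255 (SD, n = 3) was 5.01 times as high. This gave a log2 fold change of -2.33 (SE 0.19, edgeR adjusted p = 0.00156), and it was -2.08 without the wild-type control. *Slc40a1* alone among the 10 genes kept its call under every alternative run, with an edgeR adjusted p between 0.00172 and 0.0147 when 1 mouse was left out and a smallest change of -2.08 on the log2 scale.

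*Cd163*, the receptor for hemoglobin bound to haptoglobin, did not differ beyond the spread of the mice. It had 749, 1852 and 2081 normalized counts in the controls and 802, 1603 and 1466 in the *MxCDX2* mice, so the groups overlapped. The low values were those of the *RsCDX2* control and of *MxCDX2* mouse 1. The log2 fold change was -0.27 (SE 0.42, edgeR adjusted p = 0.684, exact permutation p = 0.60) and 0.0052 without the wild-type control.

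Of the 18 tested genes of a list of heme and iron recycling, 3 were called lower and 0 higher by edgeR. Over all tested genes 9.03% were called lower and 4.59% higher. The median log2 fold change of the list was -0.74. DESeq2 and limma voom also called 3 lower and 0 higher, and at an unadjusted p under 0.05 edgeR placed 9 lower and 2 higher. The count of lower calls was 5 without control 1, control 2, *MxCDX2* mouse 1 or *MxCDX2* mouse 3, and without the wild-type control 4 were lower and 1, *Cp*, which encodes ceruloplasmin, was higher. The 3 called with all mice were *Blvrb*, a biliverdin reductase that is abundant in red cells, *Nqo1*, a quinone reductase, and *Gclm*, a subunit of the enzyme that starts glutathione synthesis. *Blvrb* had 13368, 12992 and 13057 normalized counts in the controls and 3239, 1305 and 1918 in the *MxCDX2* mice, with a log2 fold change of -2.61 (SE 0.32, edgeR adjusted p = 0.00345). *Nqo1* had the largest fall of the list, from 724 ± 64.3 to 96.5 ± 25.3 normalized counts (SD, n = 3 each), with a log2 fold change of -2.91 (SE 0.25, edgeR adjusted p = 0.00159). The wild-type control was close to the other controls in both genes. *Blvra*, the other biliverdin reductase, had a log2 fold change of 0.56 (edgeR adjusted p = 0.130), with all *MxCDX2* mice above all control mice.

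Several iron genes were lower by an amount just under the fold threshold. *Slc48a1*, which moves heme out of the phagolysosome, had 9230, 9864 and 10891 normalized counts in the controls and 5249, 4403 and 5362 in the *MxCDX2* mice, with a log2 fold change of -0.998 (edgeR adjusted p = 0.00329). *Slc11a1*, the phagosomal metal transporter of macrophages and neutrophils, had a log2 fold change of -0.94 (edgeR adjusted p = 0.00984), and *Fth1*, ferritin heavy chain, of -0.97 (edgeR adjusted p = 0.0138). In these 3 genes every *MxCDX2* mouse was below every control mouse. *Hp*, haptoglobin, had a log2 fold change of -0.74 (edgeR adjusted p = 0.0922) with overlapping groups, and *Hamp*, the iron hormone hepcidin, had between 2 and 9 reads per mouse and was not tested.

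*Mertk* encodes the receptor tyrosine kinase by which macrophages engulf expelled nuclei and dying cells. It had 703, 865 and 2205 normalized counts in the controls and 227, 126 and 280 in the *MxCDX2* mice. All *MxCDX2* mice were below all controls, and the control mean of 1258 ± 825 (SD, n = 3) was 5.96 times the *MxCDX2* mean of 211 ± 78.1 (SD, n = 3). On the log2 scale the change was -2.57 (SE 0.52, edgeR adjusted p = 0.0167) and -1.88 (edgeR adjusted p = 0.0139) without the wild-type control. It lost its call when *MxCDX2* mouse 2 was left out (-2.30, edgeR adjusted p = 0.0561).

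*Axl*, its close relative, encodes another receptor of the same family. It had 4294, 4935 and 12547 normalized counts in the controls and 1549, 1697 and 2429 in the *MxCDX2* mice. The groups were separate, with a mean of 7258 ± 4591 (SD, n = 3) in control mice that was 3.84 times the 1891 ± 471 (SD, n = 3) of *MxCDX2* mice. The log2 fold change was -1.94 (SE 0.44, edgeR adjusted p = 0.0240) and -1.27 (edgeR adjusted p = 0.0101) without the wild-type control. The call was lost without *MxCDX2* mouse 1, 2 or 3, with an edgeR adjusted p of 0.0739, 0.0865 and 0.0603 and log2 fold changes of -1.81, -1.86 and -2.16. *Tyro3*, the remaining receptor of the family, had few reads, between 13 and 47 per mouse, and a log2 fold change of -0.11.

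Bridging proteins between dead cells or nuclei and the receptors that take them up went different ways. *Gas6*, the 1 ligand shared by *Mertk*, *Axl* and *Tyro3*, had 2132, 1273 and 5758 normalized counts in the controls. It had 794, 581 and 906 in the *MxCDX2* mice, all below. The log2 fold change was -2.01 (SE 0.55, edgeR adjusted p = 0.0427) and -1.14 (edgeR adjusted p = 0.0306) without the wild-type control. *Pros1*, protein S, had 1233, 853 and 3948 in the controls and 3912, 5436 and 5169 in the *MxCDX2* mice. Its groups overlapped through the wild-type control, with a log2 fold change of 1.27 (edgeR adjusted p = 0.150) with all mice and 2.24 (edgeR adjusted p = 0.00334) without that control. *Mfge8*, a bridging protein used by integrins, rose from 793 ± 271 to 2219 ± 338 normalized counts (SD, n = 3 each), with a log2 fold change of 1.48 (SE 0.26, edgeR adjusted p = 0.00965).

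Of the 22 genes of a list of dead-cell and nucleus uptake, all tested, 9 were called lower and 1, *Mfge8*, higher. The shares over all tested genes were 9.03% lower and 4.59% higher. The list had a median log2 fold change of -1.39. The genes called lower were *Gas6*, the scavenger receptors *Cd36*, *Stab1* and *Stab2*, the phosphatidylserine receptor *Timd4*, the complement genes *C1qa* and *C1qc*, and the cholesterol genes *Nr1h3* and *Abca1*. *Cd36* had the largest fall, with 5592, 3832 and 3945 normalized counts in the controls and 891, 218 and 367 in the *MxCDX2* mice and a log2 fold change of -3.18 (SE 0.52, edgeR adjusted p = 0.00822). The count of lower calls was 11 by DESeq2, 5 by limma voom and 8 without the wild-type control, and leaving out an *MxCDX2* mouse left 3 or 4.

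*Siglec1* encodes CD169, the sialic acid receptor by which marrow macrophages are often identified. It had 748, 1281 and 2572 normalized counts in the controls and 609, 1538 and 1197 in the *MxCDX2* mice. The groups overlapped, with a log2 fold change of -0.46 (SE 0.50, edgeR adjusted p = 0.563, exact permutation p = 0.60) that was 0.16 without the wild-type control. *Spn*, which encodes the sialylated ligand CD43 of leukocytes, had a log2 fold change of 0.54 (edgeR adjusted p = 0.0230), with all *MxCDX2* mice above all control mice.

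*Adgre1* encodes F4/80, the surface protein by which mouse macrophages are sorted, and was the 1 gene of the 10 with every *MxCDX2* mouse above every control mouse. It had 2664, 2848 and 5207 normalized counts in the controls and 5534, 6282 and 6276 in the *MxCDX2* mice. The *MxCDX2* mice were close together at 6030 ± 430 (SD, n = 3), 1.69 times the control mean of 3573 ± 1418 (SD, n = 3). With all mice the log2 fold change of 0.75 (SE 0.26, edgeR adjusted p = 0.0850) did not pass the thresholds. Without the wild-type control it was 1.15 and was called (edgeR adjusted p = 0.00258).

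*Mrc1*, the mannose receptor CD206, had 2709, 3119 and 8542 normalized counts in the controls and 4138, 5641 and 4714 in the *MxCDX2* mice. The wild-type control was the highest of the 6 mice and the other controls were the lowest, so the group means of 4790 ± 3256 and 4831 ± 758 (SD, n = 3 each) hid an order that depended on 1 animal. Its log2 fold change was 0.01 (SE 0.44, edgeR adjusted p = 0.988, exact permutation p = 1) with all mice, 0.75 (edgeR adjusted p = 0.0237) without the wild-type control, and -0.25 and -0.22 without control 1 or control 2.

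**Figure D2:**
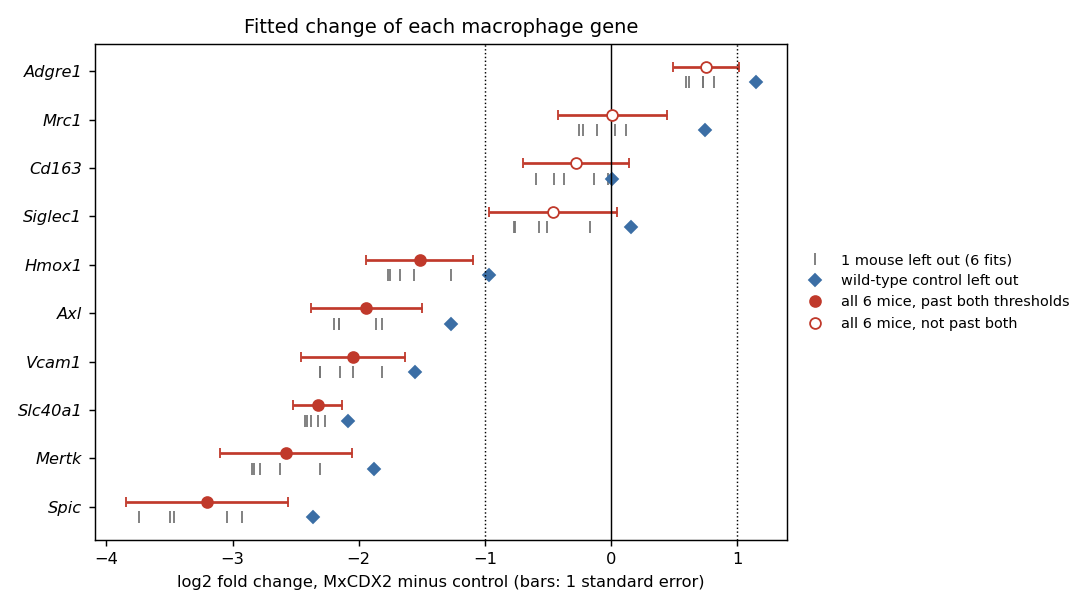
Log2 fold change (*MxCDX2* minus control) of each of the 10 genes from edgeR with all 6 mice, with bars of 1 standard error; filled circles passed both thresholds, gray ticks are the fits that left out 1 mouse, and blue diamonds mark the fit without the wild-type control. Without that control each estimate moved to the right, *Hmox1* crossed the dotted line at -1 to -0.96 and *Adgre1* crossed the dotted line at 1 to 1.15.

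The wild-type control had the highest value of the 3 controls in all 10 genes, which held for 41.2% of all tested genes. Its ratio to the mean of the other controls was 3.31 for *Spic*, 2.93 for *Mrc1*, 2.81 for *Mertk*, 2.72 for *Axl*, 2.54 for *Siglec1*, 2.36 for *Hmox1*, 2.18 for *Vcam1*, 1.89 for *Adgre1*, 1.60 for *Cd163* and 1.50 for *Slc40a1*. A log2 ratio above 1, with 1 normalized count added to both values, was found in 7 of the 10 genes and in 11.5% of all tested genes. The stroma and endothelium list moved the same way in that mouse, which was the highest control in 11 of its 12 genes. The summed normalized count of that list was 59537 in the wild-type control, against 33138 in the *RsCDX2* and 15943 in the *Mx1Cre* control. The wild-type control was also highest in 17 of 22 genes of dead-cell and nucleus uptake and in 15 of 19 of resident macrophage identity. It was highest in 11 of 18 genes of heme and iron recycling and 3 of 9 island adhesion partners. The same held for 3 of 12 monocyte, 3 of 13 erythroblast, 0 of 12 neutrophil and 1 of 8 eosinophil genes. Genotype, animal and sample cannot be told apart here, since the wild-type genotype was represented by 1 mouse.

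The reads of each gene were also set against the *Adgre1* reads of the same mouse, a ratio that needs no scaling between libraries. It was chosen after *Adgre1* was seen to be higher in every *MxCDX2* mouse, so a lower ratio follows by arithmetic for the 6 genes that were lower in every *MxCDX2* mouse, and the ratios are given as a description with no test. In all 9 genes the ratio was lower in every *MxCDX2* mouse than in every control mouse, which held for 44.9% of all tested genes. *Spic* had 0.335 ± 0.117 reads per *Adgre1* read in control and 0.0234 ± 0.0121 in *MxCDX2* mice (SD, n = 3 each), a ratio of means of 14.3. The ratio of means was 9.37 for *Mertk*, 8.76 for *Slc40a1*, 6.81 for *Vcam1*, 6.14 for *Axl* and 4.60 for *Hmox1*. It was smaller for the genes that were not called, at 2.24 for *Siglec1*, 2.10 for *Cd163* and 1.57 for *Mrc1*. The wild-type control was still the highest control in 6 of the 9 genes, as in *Spic* with 0.260, 0.275 and 0.470 reads per *Adgre1* read in controls 1, 2 and 3, and was not in *Vcam1*, *Slc40a1* and *Cd163*. *Vcam1* had 4.09, 2.78 and 3.94 in the controls and 0.576, 0.334 and 0.675 in the *MxCDX2* mice. *Slc40a1* had 5.37, 5.29 and 4.23 in the controls and 0.566, 0.587 and 0.547 in the *MxCDX2* mice.

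Levels between genes were compared only per exon length, in RPKM (reads per kilobase of merged exons, scaled to library size). In control mice *Hmox1* had the highest level of the 10 genes at 202 ± 110 (SD, n = 3), followed by *Slc40a1* at 41.9 ± 10.4, *Vcam1* at 32.5 ± 16.3, *Axl* at 31.7 ± 20.1, *Adgre1* at 24.3 ± 9.63 and *Mrc1* at 16.5 ± 11.2. The lowest levels in control mice were those of *Spic* at 7.49 ± 5.65, *Mertk* at 6.38 ± 4.18, *Cd163* at 6.28 ± 2.87 and *Siglec1* at 4.72 ± 2.89. Neighbors in this order from *Slc40a1* down differed by less than the spread of the control mice. In *MxCDX2* mice *Hmox1* was still the highest at 70.5 ± 23.9, *Adgre1* came next at 41.0 ± 2.92 and *Mrc1* after it at 16.7 ± 2.62. *Slc40a1*, *Axl* and *Vcam1* were then within their spread of one another, at 8.35 ± 0.68, 8.26 ± 2.06 and 7.87 ± 2.66, and *Mertk* and *Spic* were the lowest, at 1.07 ± 0.396 and 0.813 ± 0.450. Within single mice, *Adgre1* was the fifth of the 10 genes in each of the 3 controls and next after *Hmox1* in each of the 3 *MxCDX2* mice, and *Spic* was the lowest gene in each *MxCDX2* mouse.

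**Figure D3:**
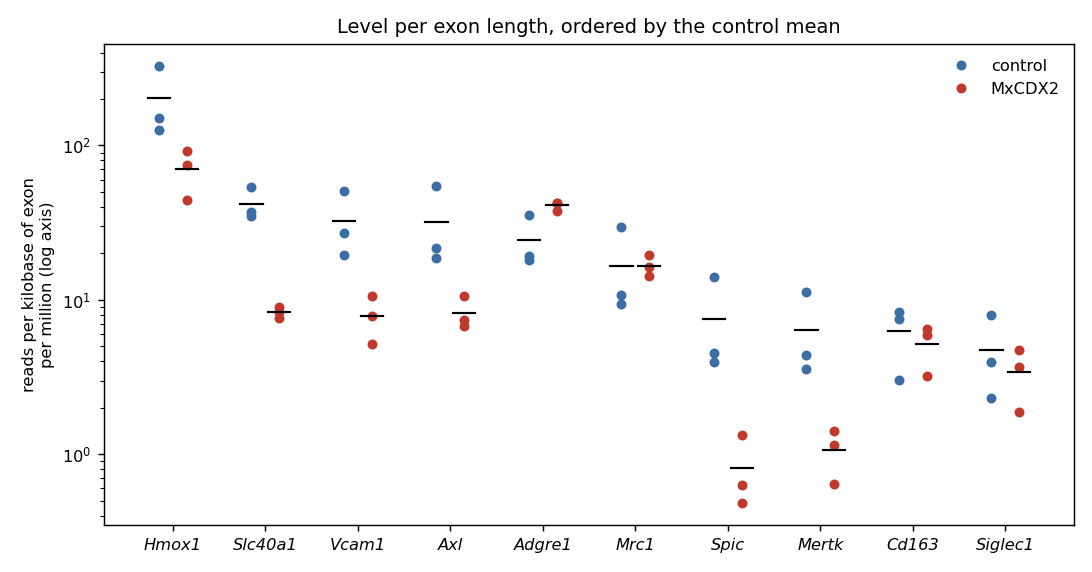
Level of each gene in RPKM over merged exons (log axis), ordered by the control mean; points are mice and horizontal lines are means of 3 mice. *Hmox1* has the highest mean in both groups, *Adgre1* passes *Slc40a1*, *Vcam1* and *Axl* in *MxCDX2* mice, and *Spic* has the lowest mean there at 0.813.

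Genes with a profile over the 6 mice most like that of *Vcam1* and of *Spic* were looked up by Pearson's correlation. It was taken on log2 normalized counts, with 1 added, among the 11982 genes that averaged 100 normalized counts or more. The 6 mice fall into 2 groups and the wild-type control stands apart, so these values describe a shared order of the mice and carry no p. The 5 genes most like *Vcam1* were *Frmd6*, *Fads1*, *Mmp14*, *Pld3* and *Maco1*, with r between 0.996 and 0.999. A high r does not mean a change of like size. *Frmd6*, *Mmp14* and *Pld3* were called lower, but *Fads1* and *Maco1* were not called, with log2 fold changes of -0.56 and -0.22. The 5 genes most like *Spic* were *Hpgds*, *Tmem26*, *Smoc1*, *Slc45a3* and *Igf1*, with r between 0.994 and 0.998. *Hpgds*, a prostaglandin D synthase, had 419, 447 and 1112 normalized counts in the controls and 98.5, 77.4 and 151 in the *MxCDX2* mice. Among the 10 genes themselves, *Spic* had r = 0.990 with *Mertk* and r = 0.984 with *Axl* and with *Vcam1*, while *Cd163*, *Siglec1*, *Mrc1* and *Adgre1* had r = 0.365, 0.494, 0.136 and -0.510 with *Spic*.

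Other genes of resident macrophages went in both directions. Of the 19 tested genes of a list of resident macrophage identity, 8 were called lower and 2 higher. The shares over all tested genes were 9.03% lower and 4.59% higher. The list had a median log2 fold change of -1.01. *Cd5l*, a secreted protein of tissue macrophages, had the largest fall of a list gene that averaged 100 normalized counts or more, with 1191, 1755 and 7404 in the controls, 476, 238 and 220 in the *MxCDX2* mice and a log2 fold change of -3.47 (SE 0.77, edgeR adjusted p = 0.0224). The other genes called lower were *Marco*, *Lyve1*, *Fcna*, *Fcgr4*, *Cd209f*, *Treml4* and *Itgad*. Few reads fell on *Marco*, between 0 and 60 per mouse, and on *Cd209f*, between 0 and 156. Without the wild-type control 6 were lower and 3 higher, DESeq2 called 10 lower and limma voom 6, and leaving out *MxCDX2* mouse 2 or 3 left 3 lower.

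The genes called higher were *Csf1r*, the receptor of the growth factor of monocytes and macrophages, and *Hpgd*, which degrades prostaglandins. *Csf1r* had 6625, 10079 and 9319 normalized counts in the controls and 31519, 40190 and 38295 in the *MxCDX2* mice, with no overlap and a log2 fold change of 2.08 (SE 0.20, edgeR adjusted p = 0.00196). *Hpgd* rose from 1113 ± 1089 to 7863 ± 4343 (SD, n = 3 each), with a log2 fold change of 2.82 (SE 0.77, edgeR adjusted p = 0.0435). Its call held in 1 of the 6 fits that left out a mouse, the one without the wild-type control, where the log2 fold change was 4.02 (edgeR adjusted p = 0.00802), and was lost at an adjusted p below 0.01. *Csf1r* kept its call in all 6 of those fits. *Cd68*, a lysosomal protein of monocytes and macrophages, had 3342, 3119 and 4545 in the controls and 6149, 6486 and 6843 in the *MxCDX2* mice, with a log2 fold change of 0.82 (edgeR adjusted p = 0.0137), under the fold threshold, and of 1.03 without the wild-type control.

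Markers of erythroblasts and of monocytes also changed, in opposite directions. Over all tested genes 9.03% were called lower and 4.59% higher. All 13 genes of an erythroblast list were called lower, 0 higher, with a median log2 fold change of -3.53 and a summed normalized count of 1909333 to 2268735 in the controls and 57362 to 221112 in the *MxCDX2* mice. The largest fall was that of *Hba-a1*, an α-globin gene whose near-identical copy *Hba-a2* makes the split of reads between them uncertain, at -4.24 (SE 0.50, edgeR adjusted p = 0.00306). Of 12 monocyte genes, 6 were called higher and 0 lower, and their summed count was 117983 to 175787 in the controls and 352982 to 422779 in the *MxCDX2* mice. *F13a1*, a coagulation factor chain of monocytes, rose most, from 13641 ± 5972 to 113831 ± 9027 (SD, n = 3 each), with a log2 fold change of 3.06 (SE 0.38, edgeR adjusted p = 0.00345). At an unadjusted p under 0.05 the erythroblast list held 0 genes higher and the monocyte list 0 lower, and DESeq2 and limma voom made the same counts of calls in both lists. Without *MxCDX2* mouse 3, 7 of the 13 erythroblast genes were called lower. The 13 also became 7 at an adjusted p below 0.01 and in the test against a log2 fold change of 1. Of the 12 monocyte genes, 4 were called higher without control 1, *MxCDX2* mouse 2 or *MxCDX2* mouse 3, and 5 without control 2. Without the wild-type control 6 were called higher and 1, *Fn1*, was called lower. No defining marker of either list was at 0 in any mouse. The part of fewer erythroid cells and of more monocytes in the changes of the 10 genes was not tested.

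Stroma and endothelium, which also express *Vcam1*, *Axl* and *Gas6*, had 3 of 12 genes called lower and 0 higher. Over all tested genes 9.03% were called lower and 4.59% higher. The list had a median log2 fold change of -1.45. Its summed normalized count was 15943 to 59537 in the controls and 7934 to 16402 in the *MxCDX2* mice. *Kitl*, the stem cell factor gene, had the largest fall among the called genes at -1.96 (SE 0.54, edgeR adjusted p = 0.0452), beside *Cxcl12* at -1.81 and *Cdh5* at -1.73. DESeq2 called 6 of the 12 lower and limma voom 0. With edgeR 4 were lower without control 2, and 1, *Kitl*, without the wild-type control. Without *MxCDX2* mouse 3 the 1 gene called was *Col1a1*, which was not called with all mice (log2 fold change -0.90, edgeR adjusted p = 0.410). The count was 0 without control 1, *MxCDX2* mouse 1 or *MxCDX2* mouse 2. At an unadjusted p under 0.05 there were 7 lower and 0 higher. The part of these cells in the fall of *Vcam1* and *Axl* was not tested.

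Of 12 neutrophil genes, 6 were called lower and 1 higher, against 9.03% lower and 4.59% higher over all tested genes. Their summed counts were 937819 to 1802653 in the controls and 625327 to 773358 in the *MxCDX2* mice. *Mmp8*, neutrophil collagenase, fell most, at -2.12 (edgeR adjusted p = 0.00283). *Ctsg*, cathepsin G of immature granulocytes, rose by 2.32 on the log2 scale (edgeR adjusted p = 0.0237). That call was lost without control 2 and without *MxCDX2* mouse 1, 2 or 3. *Elane*, *Mpo* and *Prtn3*, also genes of immature granulocytes, were not called, with log2 fold changes of -0.31, 0.31 and 0.78. Of 8 eosinophil genes edgeR called 0 in either direction, with 1 lower and 1 higher at an unadjusted p under 0.05, while DESeq2 and limma voom each called 1 lower, *Ccr3*, and 1 higher, *Siglecf*. Their summed counts overlapped, at 37964 to 186102 in the controls and 11439 to 140928 in the *MxCDX2* mice. The part of eosinophils in the level of *Adgre1* was not tested.

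**Figure D4:**
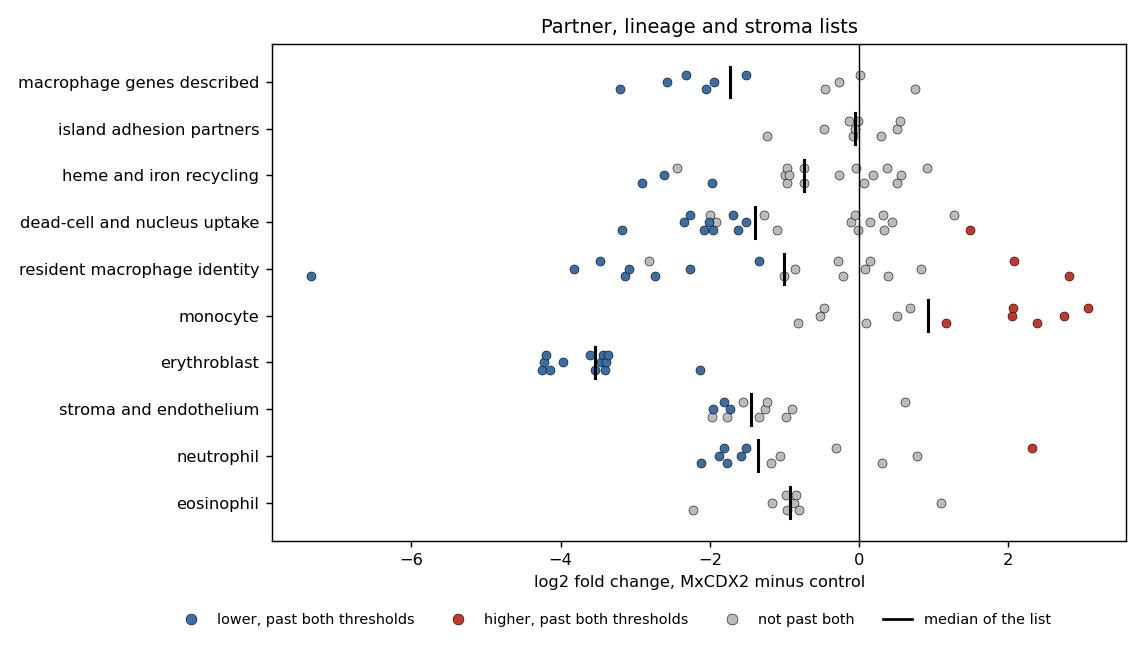
Log2 fold change (*MxCDX2* minus control) of every tested gene of the 10 macrophage genes and of 9 lists; blue points were called lower, red points higher and gray points not called, and vertical bars mark medians. The medians lie at -1.73 for the 10 macrophage genes, -3.53 for erythroblast genes, -1.45 for stroma and endothelium and 0.92 for monocyte genes.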

How the data were processed

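RNA-seq was performed on bone marrow of 3 *MxCDX2* and 3 control mice. The authors deposited raw read counts per Ensembl gene for each mouse, without normalization. The submitters' processing notes name bcl2fastq 2.17.1.14, STAR 2.5 and HTSeq 0.6.1 and the genome GRCm38. The strand setting of the counting is not given in the sources used here. The lines that HTSeq adds for reads on no gene (9.22% to 14.06% of the total) or on several (2.99% to 3.16%) were left out of library sizes and tests. Groups came from the sample labels, and the numbers of the control mice follow the order of their labels.

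Symbols, positions and merged exon lengths were taken from GENCODE M21, which held 37607 of the 39179 identifiers, and promoter sequences from RefSeq (GRCm38.p6), where 5 of the 10 genes were found. Analysis was run with edgeR 4.0.16 in R 4.3.3 (TMM, default filterByExpr, glmQLFit, glmQLFTest), with Benjamini-Hochberg adjustment over 15980 genes. The thresholds on fold change and adjusted p were those of the methods. Standard errors were derived from the quasi-likelihood F statistic. DESeq2 1.42.0 and limma 3.58.1 (voom) were alternatives, and edgeR was also run with the size factors of DESeq2 or total counts in place of TMM, without the 10 most abundant genes, on all genes with any count (1 or more) or with 10 or more in each mouse, at an adjusted p of 0.01, with glmTreat against a log2 fold change of 1, and without each mouse. Scripts were tested on simulated data. Tables used pandas 2.3.3, scipy 1.17.1 and numpy 2.4.6 in Python 3.11.15, and figures used matplotlib 3.10.9.

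The 10 genes and the lists were chosen with earlier results of these data known. Named genes were the 10 genes, fixed binding partners and regulators, the called gene with the largest rise and the largest fall of each list with an average of 100 or more normalized counts, and the 5 genes most correlated with *Vcam1* and with *Spic*. List members beyond these (*Ephb4*, *Gclm*, *Fth1*, *Mafk*, *Cp*, *Fn1*, *Hba-a2*, *Siglecf*, *Ccr3*, *Elane*, *Mpo*, *Prtn3*, *Col1a1* and the other called genes) were named after their values were seen. A regulator fixed by the rule is not reported here. With 38646101 reads or more per mouse, the spread between mice limits the precision, and each control genotype is 1 animal.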

Additional observations from a re-analysis of the deposited data

How the results depend on the processing

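The same 6 of the 10 genes were called lower with DESeq2's size factors, without the 10 most abundant genes, under both other filters on low counts, with DESeq2 and with limma voom. An adjusted p below 0.01 left 1 of them, *Slc40a1*, with 1043 calls over all genes (2177 in the reported fit) and 27 in the partner lists (52 in the reported fit). The test against a log2 fold change of 1 also left 1, with 611 calls over all genes and 22 in the lists. That test keeps the fold changes by construction, and it raised the adjusted p above the threshold for *Vcam1* (-2.04, adjusted p = 0.116), *Spic* (-3.20, 0.0688), *Hmox1* (-1.52, 0.409), *Mertk* (-2.57, 0.0902) and *Axl* (-1.94, 0.171). Total counts only moved the median log2 fold change of all genes to 0.12 and ended the call of *Hmox1* (-1.43, adjusted p = 0.0556). DESeq2 made 2903 calls over all genes. *Mrc1* changed sign, uncalled, with at least 10 counts in every mouse (-0.0029).

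Leaving out each mouse in turn gave 1 to 6 genes called lower and 0 to 1 called higher, 1205 to 2406 calls over all genes and 30 to 54 in the lists. With 2 mice left in a group, fewer samples were tested. Log2 fold changes then ranged from -2.31 to -1.55 for *Vcam1*, -3.74 to -2.36 for *Spic*, -2.42 to -2.08 for *Slc40a1*, -1.76 to -0.96 for *Hmox1*, -2.85 to -1.88 for *Mertk*, -2.19 to -1.27 for *Axl* and 0.60 to 1.15 for *Adgre1*. The other 3 uncalled genes crossed 0, from -0.59 to 0.0052 for *Cd163*, -0.77 to 0.16 for *Siglec1* and -0.25 to 0.75 for *Mrc1*, the last at -0.22 without control 2 and -0.11 without *MxCDX2* mouse 2. The cause of these shifts was not tested.

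No paired analysis was possible because the labels of the control mice carry no replicate number that pairs them with *MxCDX2* mice. Depth limits the genes with few reads, among them *Tyro3*, *Hamp*, *Marco* and *Cd209f*, and the spread of 3 mice limits the rest.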
